A study of Mus musculus with 8 samples.

Results

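The genes of the tumor necrosis factor receptor-associated factors, *Traf1* to *Traf7*, and of the cellular inhibitors of apoptosis, *Birc2* (cIAP1) and *Birc3* (cIAP2), were analyzed in the bulk RNA-seq of fetal liver LT-HSCs, the long-term repopulating hematopoietic stem cells. They were chosen by name and found through their Ensembl identifiers, and are 9 of the 55487 genes in the count table. All 9 were among the 20610 genes with at least 10 reads summed over the samples, and were tested.

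TRAF proteins are adaptors that act downstream of receptors of the TNF, Toll-like and IL-1 families and carry the signal towards NF-κB and MAP kinases. Many of them are RING-type ubiquitin ligases. TRAF2 brings cIAP1 and cIAP2 to the receptor, where they ubiquitinate RIPK1, and together with TRAF3 the same ligases mark the kinase NIK for degradation and so hold the non-canonical NF-κB pathway in check. *Traf1* and *Birc3* are themselves textbook target genes of NF-κB, whose dimers IκBα, encoded by *Nfkbia*, retains in the cytoplasm.

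The data were 8 libraries of 500 LT-HSCs each, sorted as LSK CD150+CD48- cells from E14.5 fetal liver, 3 of *IκBα* WT, 3 of HET and 2 of KO embryos. According to the paper, a further KO sample was left out after sequencing because its quality was inadequate. The embryos came from matings of HET mice carrying the germline targeted allele *Nfkbia* tm1Bal, so every cell type of a KO embryo lacked the gene. The line was kept partly with a *Gfi1:tomato* reporter, and which embryos carried it is not given in the sources used here. The male libraries, labelled as total RNA, were WT1, WT2 and HET1, and the other 5, labelled as polyA RNA, were female, so that sex and this label cannot be told apart. Between 17895973 and 21720972 reads per library were counted on genes, and 3 reads, the floor used here, were worth 0.125 to 0.178 CPM (reads scaled by the library total and TMM factors). *Nfkbia* had 23.4 to 67.7 CPM in the WT and 14.4 to 29.0 in the HET libraries, 1 read in KO1 and 0 reads in KO2, which allows up to 0.1475 CPM there.

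The libraries differed in how much LT-HSC transcript they held. The summed CPM of 10 LT-HSC markers was 2158 in WT1, 2286 in WT2, 2103 in KO1 and 1358 in KO2, but 842 in HET1, 690 in HET2, 319 in WT3 and 211 in HET3. In HET3 *Ly6a*, which encodes the SCA1 antigen of the sort, was at 0 CPM and *Procr* at 1.13 CPM, against 62.7 and 169 CPM in WT1, whereas *Kit* was at 135 to 231 CPM in all 8. The 3 libraries poorest in these markers made up the whole female reference, and both KO libraries were female, so that with sex in the model the KO value of a gene rested on WT3, HET2 and HET3. Summed hepatoblast markers, which other fetal liver cells would bring, were 1483 CPM in WT3 and 753 CPM in HET3 against 49.8 to 299 CPM in the other libraries. The sums of the other marker lists were 622 to 9136 CPM for erythroid cells, with the highest in HET1, 119 to 917 CPM for neutrophils and granulocyte precursors, 26.0 to 266 CPM for macrophages, 186 to 660 CPM for endothelium, 56.6 to 1388 CPM for megakaryocytes and 0.356 to 7.52 CPM for lymphocytes.

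**Figure D1:**
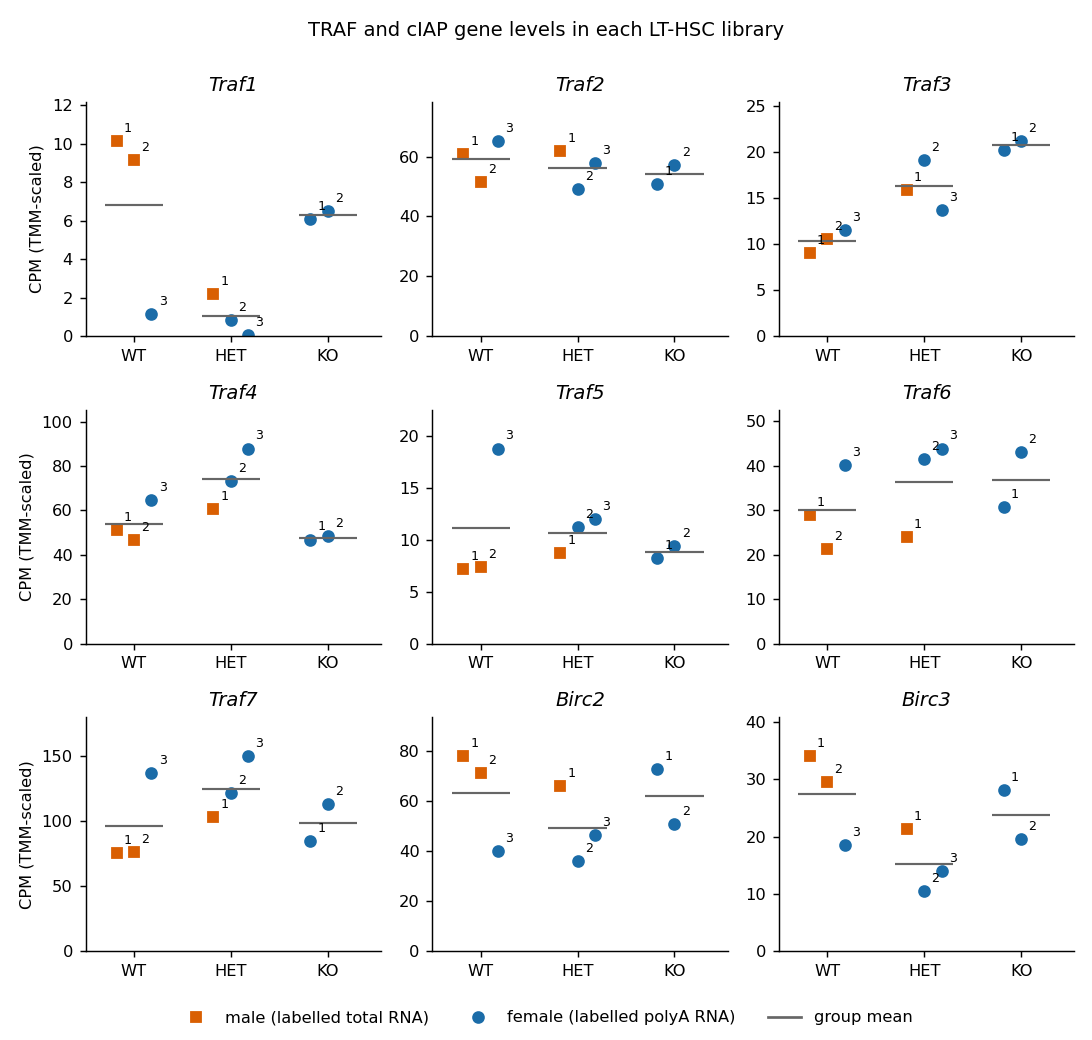
TMM-scaled CPM (vertical axes, each from 0) of the 9 genes in the WT, HET and KO libraries. Each point is 1 library with its number, orange squares are male and blue circles female, and gray lines are group means. *Traf3* stepped up from WT (8.98 to 11.5 CPM) through HET to KO (20.2 and 21.2 CPM), and *Traf1* was lowest in the 3 female references.

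The promoters of *Traf3*, *Traf1* and the neighbors *Birc3* and *Birc2*, the genes with both KO libraries above the 3 female references, are shown because they differ in base composition and in one match to the κB consensus, the DNA motif bound by NF-κB dimers. RefSeq windows from 250 bases before to 50 bases after the start site (GRCm38.p6) were found for all 9 genes, 10 windows in all. The κB consensus was searched on both strands, and 1 of the 9 genes, *Traf3*, held a match. Of the 32851 windows of 300 bases compared, which did not cover every chromosome, 4.51% held a match. The *Traf3* match occupied bases -10 to -1 before the start site. For each gene the 120 bases upstream of the outermost start site in RefSeq and GENCODE are printed on the strand of its transcript, with the κB match in capitals. They lie at chr12:111166250-111166369 on the plus strand for *Traf3*, chr2:34961773-34961892 on the minus strand for *Traf1*, chr9:7873187-7873306 on the minus strand for *Birc3* and chr9:7837065-7837184 on the minus strand for *Birc2*.
Traf3: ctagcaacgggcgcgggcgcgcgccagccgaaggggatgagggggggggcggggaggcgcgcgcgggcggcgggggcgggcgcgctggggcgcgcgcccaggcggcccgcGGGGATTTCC
Traf1: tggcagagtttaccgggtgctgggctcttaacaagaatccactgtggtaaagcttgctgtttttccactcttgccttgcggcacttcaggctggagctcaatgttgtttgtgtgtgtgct
Birc3: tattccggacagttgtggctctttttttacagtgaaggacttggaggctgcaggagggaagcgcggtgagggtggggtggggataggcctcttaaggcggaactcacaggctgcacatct
Birc2: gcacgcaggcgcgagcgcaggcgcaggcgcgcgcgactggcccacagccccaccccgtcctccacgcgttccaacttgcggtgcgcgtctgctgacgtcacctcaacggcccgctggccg
The *Traf3* stretch held 23 CpG dinucleotides and 85.8% G or C, and its full window stood at the 99.8th percentile of the windows compared for GC content. *Birc2* held 19 CpG dinucleotides, whereas *Birc3* held 4 and *Traf1* held 2. A match is a description of letters in these windows and says nothing of binding.

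Per kilobase of exon, the mean level over the 8 libraries was highest for *Traf7* (18.3 ± 4.75 CPM per kb, SD, n = 8) and *Traf4* (18.2 ± 4.51). *Birc2* (12.6 ± 3.55) and *Traf2* (11.1 ± 1.14) came next, followed by *Birc3* (4.39 ± 1.61) and *Traf6* (4.33 ± 1.15), then *Traf5* (2.27 ± 0.834) and *Traf3* (2.06 ± 0.636), and *Traf1* was lowest (0.511 ± 0.450). The neighbors named together in this order differed by less than the larger SD of each pair. The steadiest gene was *Traf2*, whose highest library was 1.33 times its lowest, with an SD at the 12th percentile of 500 genes of similar level. *Traf1* stood at the 86th percentile of its own 500 neighbors, and the remaining 7 genes lay between the 34.4th and the 69.4th.

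To compare KO with the pooled WT and HET libraries, a model with sex and genotype was fitted with edgeR over all 20610 genes, and genes were called at an adjusted p under 0.05 and a log2 fold change beyond 1. None of the 9 genes was called, with adjusted p-values of 0.151 to 0.800, and neither was any other gene (0.0% of those tested). The deleted *Nfkbia* itself, with a log2 fold change of -9.50, missed the threshold (edgeR adjusted p = 0.0862). The lack of calls therefore does not show that a gene was unchanged. At an unadjusted p under 0.05, 3 of the 9 were higher in KO (*Traf1*, *Birc2* and *Birc3*) and 1 was lower (*Traf4*), against 15.7% and 9.48% of all genes. Their median log2 fold change was -0.08, against 0.13 over all genes tested. DESeq2 called 1 of the 9, *Traf1*, with and without shrinkage, against 7.29% of all genes called higher without it and 6.5% with it. Because these are bulk samples, fewer cells of a type and less RNA per cell cannot be told apart in any of these values.

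**Figure D2:**
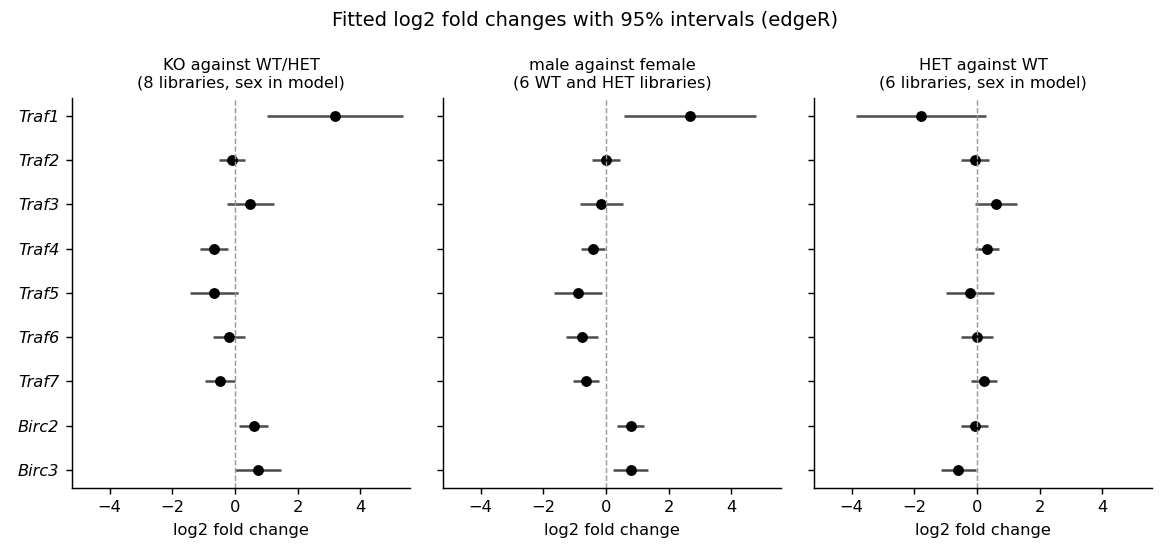
Log2 fold changes (horizontal axes) of the 9 genes (vertical axis) from edgeR, as points with 95% intervals, for KO against WT/HET, male against female WT and HET, and HET against WT. *Traf1* reached 3.20 in KO with an interval from 1.04 to 5.37, and *Traf1*, *Birc2* and *Birc3* lay right of 0 in both the first and the second panel.

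*Traf1* (ENSMUSG00000026875, chr2:34941750-34961772, minus strand) encodes the one TRAF without a RING domain, which joins TRAF2 and the cIAPs in receptor complexes. It was measured at 10.2, 9.15 and 1.15 CPM in WT1, WT2 and WT3, at 2.18, 0.807 and 0.0593 CPM in HET1, HET2 and HET3, and at 6.07 and 6.49 CPM in KO1 and KO2. HET3 held 1 *Traf1* read, which is under the floor, whereas WT1 and WT2 held 217 and 219. Both KO libraries were thus above the 3 female references but below the male WT libraries, and overlapped the 6 references as a whole. The log2 fold change of KO against WT/HET was 3.20 (SE 0.947, edgeR adjusted p = 0.151). It came to 0.68 without sex in the model. The mean log2 CPM of KO was 3.50 above the female and 0.09 above the male references. DESeq2 gave 3.19 (adjusted p = 0.0135), and 2.58 after shrinkage.

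The low *Traf1* libraries were also those with the lowest LT-HSC markers. Per 1000 CPM of summed LT-HSC markers, *Traf1* had 4.71, 4.003 and 3.59 CPM in WT1, WT2 and WT3, 2.59, 1.17 and 0.281 CPM in the HET libraries, and 2.89 and 4.78 CPM in the KO libraries. On that scale KO1 fell within the range of the 6 references and KO2 just above it. *Kit* alone made up 170 of the 211 CPM of markers in HET3 and 148 of the 319 CPM in WT3. Values on this scale in these libraries, here and for the genes below, therefore rested to a large part on *Kit*. The part of the marker content in the *Traf1* difference was not tested. With WT3 and HET3 both left out, a choice made after the data were seen, the KO log2 fold change was 2.92 (edgeR adjusted p = 0.683) and rested on HET2 as the sole female reference.

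**Figure D3:**
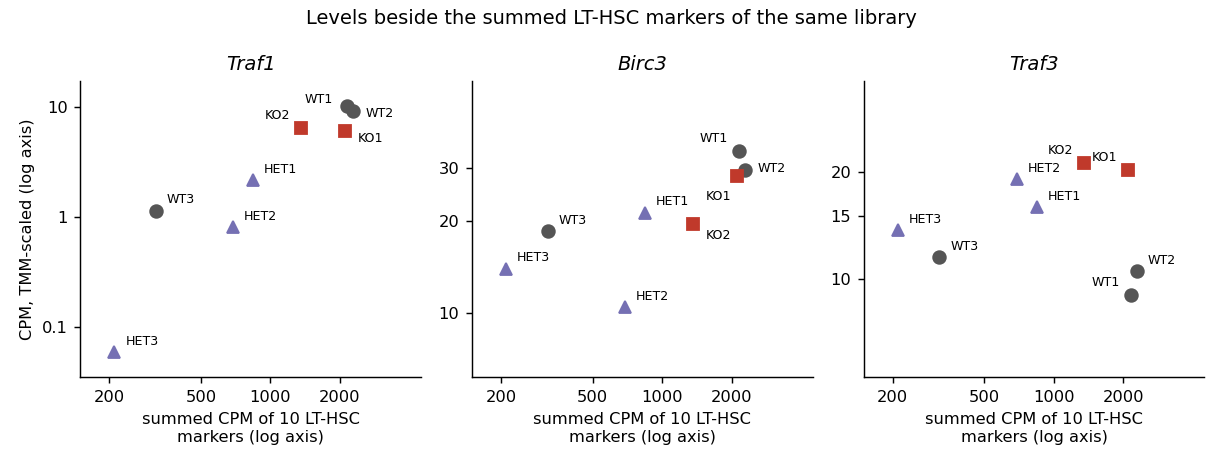
TMM-scaled CPM of *Traf1*, *Birc3* and *Traf3* (vertical log axes) against the summed CPM of 10 LT-HSC markers in the same library (horizontal log axes). Gray circles are WT, purple triangles HET and red squares KO, 1 point per library. The lowest *Traf1* point, HET3, is also the lowest in markers (211 CPM), whereas *Traf3* was lowest in WT1 and WT2, which held 2158 and 2286 CPM of markers.

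*Birc2* (ENSMUSG00000057367, chr9:7818227-7837064) and *Birc3* (ENSMUSG00000032000, chr9:7848699-7873186) lie next to each other on the minus strand, 11634 bases apart with no annotated gene between them. Their products, cIAP1 and cIAP2, are the RING ubiquitin ligases that TRAF2 recruits. *Birc2* was at 78.1, 71.2 and 40.3 CPM in the WT, 66.0, 36.0 and 46.4 CPM in the HET and 73.1 and 51.0 CPM in the KO libraries. *Birc3* was at 34.1, 29.5 and 18.6 CPM in the WT, 21.4, 10.4 and 14.0 CPM in the HET and 28.2 and 19.6 CPM in the KO libraries. Both genes were highest in WT1 and lowest in HET2, and in both the KO libraries lay above the 3 female references, with KO1 within and KO2 below the range of the male ones.

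In KO the log2 fold change was 0.60 for *Birc2* (SE 0.203, edgeR adjusted p = 0.155) and 0.74 for *Birc3* (SE 0.320, edgeR adjusted p = 0.198). Leaving out KO1 lowered them to 0.32 and 0.45, and without sex in the model they were 0.14 and 0.16. With WT3 and HET3 both left out they were 0.75 and 1.16. WT1, WT2 and KO1, the libraries with the most LT-HSC marker transcript, held the 3 highest levels of both genes, and the part of this in the differences was not tested. Per 1000 CPM of summed markers, *Birc3* was at 12.9 to 66.4 CPM and *Birc2* at 31.1 to 220 CPM. The highest value of both was in HET3, where *Kit* made up 170 of the 211 CPM of markers.

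The ratio of both cIAP genes was steadier than either level, and it separated the genotypes. For every 100 *Birc2* reads there were 43.6, 41.4 and 46.2 *Birc3* reads in the WT, 32.4, 29.0 and 30.1 in the HET and 38.6 and 38.4 in the KO libraries. The 3 groups did not overlap. The same order, HET below KO below WT without overlap, was found for 0.141% of genes set against *Birc2*, and HET below WT for 3.26%. This ratio and the order counted were chosen after the values were seen and are given without a test. Other orders of the genotypes were not counted, so the share does not tell how often a ratio separates them. The ratio does not depend on the scaling of the libraries.

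**Figure D4:**
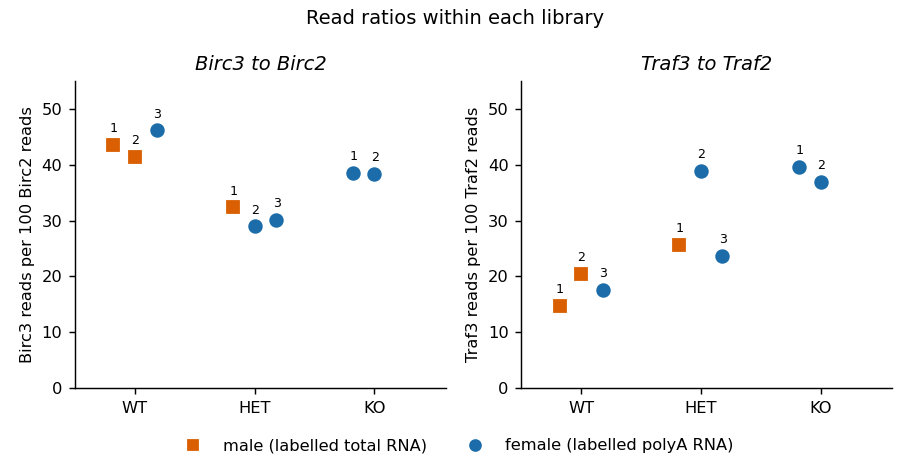
Reads of *Birc3* per 100 reads of *Birc2* (left) and of *Traf3* per 100 reads of *Traf2* (right) in each library, both axes from 0, with male libraries as orange squares and female ones as blue circles. The WT libraries were highest on the left (41.4 to 46.2) and lowest on the right (14.8 to 20.4).

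*Traf3* (ENSMUSG00000021277, chr12:111166370-111267153, plus strand), whose product links NIK to the TRAF2 and cIAP ligases, was ordered by genotype in these libraries. *Nfkbia* lies on the same chromosome, at chr12:55489410-55492647. *Traf3* was at 8.98, 10.5 and 11.5 CPM in the WT, 15.9, 19.1 and 13.7 CPM in the HET and 20.2 and 21.2 CPM in the KO libraries, from 192 to 431 reads. Every HET library was above every WT library and both KO libraries were above every HET library. Of the 20610 genes tested, 10 (0.0485%) were ordered in this way, and both KO libraries were above the 6 others for 3.05%. None of the 9 genes had both KO libraries below the 6 others, as 1.79% of all genes had. With library size as the scale the KO libraries kept their place, but HET3 (11.7 CPM) fell below WT2 (12.2 CPM). The order was noticed in the values and was not a planned test, and other orders of the genotypes were not counted.

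The planned tests of *Traf3* did not pass the threshold. Its log2 fold change in KO was 0.49 (SE 0.329, edgeR adjusted p = 0.369), and the exact two-sided permutation test of log2 CPM gave p = 0.0714, the smallest that 2 libraries against 6 allow. Against WT alone the value was 0.91 (edgeR adjusted p = 0.530, unadjusted 0.0206) and against HET alone it was 0.30 (edgeR adjusted p = 0.496). It was 0.09 with WT3 and HET3 both left out, when HET2, the HET library highest in *Traf3*, was the sole female reference, and 0.72 without HET2. Unlike *Traf1*, *Traf3* was lowest in WT1 and WT2, which held the most LT-HSC marker transcript. Per 1000 CPM of summed markers, *Traf3* had 4.16, 4.61 and 36.1 CPM in the WT, 18.9, 27.7 and 65.0 CPM in the HET and 9.61 and 15.6 CPM in the KO libraries. On that scale the order by genotype was lost, with both KO libraries below WT3 and every HET library. For every 100 reads of *Traf2* there were 14.8, 20.4 and 17.6 *Traf3* reads in the WT, 25.6, 39.0 and 23.7 in the HET and 39.6 and 37.0 in the KO libraries, so that on this scale HET2 and KO2 changed places. HET above WT without overlap, as seen here, was found for 5.68% of genes set against *Traf2*.

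*Traf2* (ENSMUSG00000026942, chr2:25517982-25546940, minus strand) encodes the adaptor that carries the cIAPs to TNF receptors. It was at 60.7, 51.5 and 65.3 CPM in the WT, 62.1, 49.1 and 57.8 CPM in the HET and 51.0 and 57.3 CPM in the KO libraries. The groups overlapped throughout. The KO log2 fold change was -0.08 with a 95% interval from -0.50 to 0.33 (edgeR adjusted p = 0.800), and it turned to 0.20 when library size was the scale.

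*Traf5* (ENSMUSG00000026637, chr1:191997205-192092559, minus strand) encodes a close relative of TRAF2 that serves lymphocyte receptors such as CD27 and CD40. It was at 7.21, 7.40 and 18.8 CPM in the WT, 8.72, 11.2 and 12.0 CPM in the HET and 8.22 and 9.44 CPM in the KO libraries. WT3 stood above all others, and both KO libraries were below the 3 female references. The KO log2 fold change was -0.67 (SE 0.329, edgeR adjusted p = 0.237) and -0.41 without WT3. In the annotation 5.91% of its exon bases are shared with other genes, of which *Gm26879* lies antisense and had 5 reads in all, so that its counts are uncertain to that extent.

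*Traf6* (ENSMUSG00000027164, chr2:101678429-101701669, plus strand) encodes the ubiquitin ligase downstream of Toll-like and IL-1 receptors. It was at 29.0, 21.2 and 40.1 CPM in the WT, 23.9, 41.4 and 43.8 CPM in the HET and 30.6 and 43.0 CPM in the KO libraries. The 3 male libraries were the lowest of all 8, and KO and female references overlapped. The KO log2 fold change was -0.18 with a 95% interval from -0.69 to 0.32 (edgeR adjusted p = 0.626), and it turned to 0.15 without sex in the model and to 0.09 with library size as the scale.

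*Traf4* (ENSMUSG00000017386, chr11:78158499-78165589, minus strand), a TRAF known for its part in morphogenesis, was at 51.0, 46.5 and 64.6 CPM in the WT, 60.6, 73.3 and 87.8 CPM in the HET and 46.9 and 48.6 CPM in the KO libraries. Both KO libraries were below all references but WT2, and below WT2 as well (49.5 to 53.5 against 53.9 CPM) with library size as the scale. In KO its log2 fold change was -0.66 (SE 0.195, edgeR adjusted p = 0.151), and -0.54 without HET3. DESeq2 gave -0.69 (adjusted p = 0.0251), which passed on p but not on size. HET3, the library poorest in LT-HSC markers, held the highest level, and the part of this in the difference was not tested.

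*Traf7* (ENSMUSG00000052752, chr17:24508562-24527938, minus strand) encodes a RING protein that has WD40 repeats in place of the TRAF domain of the others. It was at 75.6, 76.0 and 137 CPM in the WT, 103, 122 and 150 CPM in the HET and 84.5 and 113 CPM in the KO libraries. WT3 and HET3, the marker-poor libraries, were the highest of all, and the KO libraries were below the 3 female references. With sex in the model, KO differed by a log2 fold change of -0.47 (SE 0.207, edgeR adjusted p = 0.204). It came to -0.27 without KO1 and to -0.16 without sex in the model. Of its exon bases, 6.42% are shared with *Rab26* and *Caskin1*, which had 121 and 14 reads over the 8 libraries.

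Against the 3 female references alone, 4 of the 9 genes had both KO libraries above (*Traf1*, *Traf3*, *Birc2* and *Birc3*), against 27.1% of all genes, and 3 had both below (*Traf4*, *Traf5* and *Traf7*), against 21.4%. With library size as the scale 5 were above, *Traf2* among them, and 2 were below, as *Traf7* then overlapped. The exact two-sided permutation test cannot go below 0.2 with 2 libraries against 3. An edgeR fit of the female libraries alone gave log2 fold changes of 3.16 for *Traf1*, 0.44 for *Traf3*, 0.55 for *Birc2*, 0.68 for *Birc3*, -0.70 for *Traf4*, -0.71 for *Traf5* and -0.51 for *Traf7*, with adjusted p-values of 0.119 to 0.384.

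As sex was a term of the model, it was also compared on its own, in the 6 WT and HET libraries with genotype in the model. None of the 9 genes was called, with edgeR adjusted p-values of 0.176 to 0.999, and 3 of all genes were (0.0146%). At an unadjusted p under 0.05, 3 of the 9 were higher in the male libraries, against 10.7% of all genes, and 4 were lower, against 12.0%. With TMM scaling the same 7 genes did not overlap between the sexes, against 21.1% of genes with the male libraries above and 17.5% with them below. With library size as the scale *Traf4* overlapped, and *Traf2* had the male libraries above instead. *Traf1* had a log2 fold change of 2.69 (SE 0.874), *Birc3* of 0.79 (SE 0.234) and *Birc2* of 0.78 (SE 0.183). *Traf5* was at -0.89, *Traf6* at -0.76, *Traf7* at -0.63 and *Traf4* at -0.41, whereas *Traf2* (-0.0014) and *Traf3* (-0.14) were near 0. Without WT3 *Traf5* came to -0.41 and *Traf7* to -0.40, and without HET1 *Traf5* came to -1.42. With the replicate number as a block, no gene was called and *Traf1* came to 0.69. The male libraries held 842 to 2286 CPM of LT-HSC markers and the female references 211 to 690 CPM, so that sex, the molecule label and marker content cannot be told apart here. DESeq2 called *Traf1* here too, against 6.5% of all genes called higher in male libraries. This comparison and that of KO share the 3 female reference libraries.

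HET was compared with WT in the same 6 libraries with sex in the model, to see the effect of losing one *IκBα* copy. No gene was called with edgeR (0.0% of those tested), and 1 of the 9 genes, *Birc3*, had an unadjusted p under 0.05, on the lower side, against 1.82% of all genes on that side and 1.8% on the other. Its log2 fold change was -0.59 (SE 0.234, edgeR adjusted p = 0.932), and the HET mean of log2 CPM lay 0.57 below WT in the male and 0.62 below WT in the female libraries. *Traf3* was 0.61 higher in HET (SE 0.280, edgeR adjusted p = 0.932), by 0.70 in the male and 0.49 in the female libraries, and was the 1 gene of the 9 without overlap, against 4.2% of all genes with HET above and 4.85% with HET below. With library size as the scale *Traf3* overlapped, and *Traf4* was the 1 gene with HET above WT instead. The exact two-sided permutation test of *Traf3* gave p = 0.1, the smallest that 3 against 3 allow. *Traf1* was at -1.78 (SE 0.863, edgeR adjusted p = 0.932). With WT3 and HET3 both left out, *Traf1* was called at -2.14 (edgeR adjusted p = 0.0125), as were 1964 genes in all, in a fit of 4 libraries with 1 residual degree of freedom. HET2 was then the sole female library, so that the HET value rested on HET1 alone against WT1 and WT2. The other 6 genes had values of -0.22 to 0.32.

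The genes most like *Traf1* and *Birc3*, those of the 9 with the largest range, were sought by the root mean square difference of mean-centered log2 CPM over the 8 libraries, among 10099 genes with a mean of at least 5 CPM. *Traf1* was closest to *Gata3* (0.262), *Ankrd13d* (0.280) and *Fgd2* (0.318). *Gata3* was at 15.9, 16.1 and 1.56 CPM in the WT, 4.68, 2.02 and 0.119 CPM in the HET and 9.74 and 11.8 CPM in the KO libraries. *Birc3* was closest to *Kbtbd7* (0.108), *Fyco1* (0.140) and *Zfp867* (0.148), and its distance to its neighbor *Birc2* was 0.233, against 0.529 to *Traf2* and 1.55 to *Traf1*.

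The receptors, partners and antagonists of these proteins were followed in lists chosen with earlier results of these data known, and no gene of them was called by edgeR. DESeq2 with apeglm called 5 of the receptors, 2 of the partners, 2 of the NIK arm, 0 of the other IAP genes and 1 of the brakes, all higher, against 6.5% of all genes. Of 12 TNF-family receptors that bind TRAFs, 9 were tested, 7 of them higher and 0 lower in KO at an unadjusted p under 0.05, against 15.7% and 9.48% of all genes. Their median log2 fold change was 1.98 in KO, against 0.13 over all genes tested, and 1.91 for male against female. *Cd27*, a lymphocyte costimulator, was at 141, 143 and 6.41 CPM in the WT, 46.6, 30.1 and 0.949 CPM in the HET and 134 and 74.6 CPM in the KO libraries (log2 fold change 3.06, SE 1.05, edgeR adjusted p = 0.156). *Tnfrsf18*, the receptor GITR, had a log2 fold change of 2.50 (SE 1.15, edgeR adjusted p = 0.213). The 10 LT-HSC markers, set beside these receptors, were all higher at an unadjusted p under 0.05, with a median of 2.65 in KO and 2.52 in male libraries, and the part of marker content in the receptor values was not tested.

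Among 20 partners and transmitters of TRAF signals, 5 were higher and 1 lower in KO at an unadjusted p under 0.05, against 15.7% and 9.48% of all genes. Their median log2 fold change was 0.33 in KO and 0.47 for male against female. *Ikbke*, the kinase IKKε, was at 17.2, 20.3 and 1.15 CPM in the WT, 15.5, 3.38 and 1.60 CPM in the HET and 19.7 and 13.0 CPM in the KO libraries (log2 fold change 2.99, SE 0.462, edgeR adjusted p = 0.148). *Traf3ip3*, a TRAF3-interacting membrane protein, had 2.58 (SE 0.653, edgeR adjusted p = 0.148). Both KO libraries overlapped the references in both genes. For male against female *Ikbke* had 3.30 and *Traf3ip3* 2.23, and the part of marker content in these values was not tested.

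Of the 4 genes of the NIK arm, 3 were higher and 1 lower at an unadjusted p under 0.05, against the same shares of all genes, 15.7% and 9.48%. The median log2 fold change was 1.97 in KO and 1.01 for male against female. *Relb*, the NF-κB subunit that the arm releases, was at 13.9, 10.5 and 2.03 CPM in the WT, 4.15, 4.24 and 1.54 CPM in the HET and 18.2 and 14.7 CPM in the KO libraries. Both KO libraries were above the 6 others, as they were for *Traf3* and 3.05% of all genes, and the log2 fold change was 2.65 (SE 0.586, edgeR adjusted p = 0.148). *Nfkb2*, which encodes the precursor p100, had 1.29 (SE 0.474, edgeR adjusted p = 0.162). It was at 8.47, 7.35 and 5.10 CPM in the WT, 6.70, 7.42 and 3.32 CPM in the HET and 18.3 and 7.47 CPM in the KO libraries. KO2 thus lay within the range of the references. For male against female *Relb* had 1.55 and *Nfkb2* 0.47.

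Of 10 other IAP genes and IAP antagonists, 9 were tested, 2 of them higher and 3 lower at an unadjusted p under 0.05, against 15.7% and 9.48% of all genes, with a median of -0.20. *Naip5* (1.89, SE 0.781, edgeR adjusted p = 0.183) and *Naip6* (1.29, SE 0.671, edgeR adjusted p = 0.254) had the largest differences among those of at least 5 CPM, but are near-identical copies whose unique reads are uncertain. For male against female they had 1.72 and 0.75. Of 10 brakes on TRAF and cIAP ubiquitin signals, 4 were higher and 1 lower, set against these same shares. Their median was 0.57 in KO and 0.63 for male against female. *Tnip1* and *Tnip2*, which encode ubiquitin-binding partners of A20, had 1.67 (SE 0.361, edgeR adjusted p = 0.148) and 1.01 (SE 0.240, edgeR adjusted p = 0.148). For male against female they had 1.41 and 1.06, and in both genes KO overlapped the 6 references.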

How the data were processed

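Bulk RNA-seq of 8 libraries was analyzed. The authors deposited raw read counts per gene: according to the methods and the submitters' processing notes they trimmed reads with Trim Galore 0.6.6, aligned them with STAR 2.7.8 to GRCm38 (Ensembl 102), kept uniquely mapped reads and counted them with STAR. The strand column used is not given in the sources used here. The authors also deposited log2 values (variance-stabilized with DESeq2 1.38.3, corrected for sex), used here only in an alternative. Symbols and positions are those of GENCODE M21.

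Genes with at least 10 reads over the 8 libraries were scaled by TMM. Quasi-likelihood F tests were run in edgeR 4.0.16 (R 4.3.3), with Benjamini-Hochberg adjustment over 20610 genes; intervals are 95%. DESeq2 1.42.0 with apeglm 1.24.0 was an alternative. The authors' fold changes were not used. The genes and lists were chosen with earlier results of these data known. All 9 genes and *Nfkbia* are named, and from each list the 2 genes of at least 5 CPM with the largest change. The tests were tried on simulated data. Replicates were separate embryos, and replicate pairs differed by more than sampling noise. Same-numbered WT and HET libraries correlated in their deviations (r = 0.293, 0.199 and 0.590), but so did some with other numbers (0.403 for WT2 and HET1), and with sex removed the same pairs gave -0.519, 0.307 and -0.084. With 2 KO libraries, a WT library correlated with KO1 and KO2 at equal and opposite values (r = 0.278 and -0.278 for WT1, 0.346 and -0.346 for WT2). Such values cannot show whether the KO numbers paired with those of WT.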

Additional observations from a re-analysis of the deposited data

Results flagged for a closer look

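With TMM scaling, the HET libraries lay on opposite sides of WT in the male and the female embryos in *Traf2* and *Traf5*. For *Traf2*, HET1 was above both male WT libraries and HET2 and HET3 were below WT3, and the interaction of genotype and sex was 0.43 on the log2 scale (edgeR adjusted p = 0.618). For *Traf5*, HET1 was again above both male WT libraries and the female HET libraries below WT3, with an interaction of 0.95 (edgeR adjusted p = 0.541). Neither interaction passed the threshold, and in both genes the female side rested on WT3 alone and the male side on HET1 alone. With library size as the scale, HET1 was not above both male WT libraries in either gene. For *Traf2*, HET1 then had 60.2 CPM against 66.2 CPM in WT1, and for *Traf5* 8.46 CPM against 8.58 CPM in WT2. In 9 groups of 6 libraries tested for a sample far from the rest, none was found.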

How the results depend on the processing

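The KO signs of *Traf1*, *Traf3*, *Traf4*, *Traf5*, *Traf7*, *Birc2* and *Birc3* were kept under all alternatives in which they were tested, but 2 KO libraries, a female-only reference poor in LT-HSC markers and 1 read of *Traf1* in HET3 limit every value. In KO against WT/HET, genes called went from 0 to 1106 with no filter on low counts, 1825 with DESeq2 and 1463 with apeglm, each with 1 of the 9 (*Traf1*). HET against WT had 131 calls with no filter, 64 with DESeq2, and 1964, *Traf1* among them, with WT3 and HET3 both left out. Male against female, with 3, had 2154 with no filter, 1838 with DESeq2 (*Traf1* among both, 1 of the 9), 46 with WT3 and HET3 both left out and 0 with at least 10 reads in every library, where *Traf1* is no longer tested. The cause was not tested. Leaving out single libraries gave 0 to 730 calls in KO (730 without HET2, 8 without HET1), 0 to 135 in HET (135 without HET2) and 1 to 2998 in male against female (2998 without HET2, 1482 without HET1, 1 without WT1 or WT2), and 0 to 1 of the 9 (*Traf1*, without HET2).

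The replicate block gave 0 genes called in KO, HET and male comparisons. Under it *Traf2* turned to 0.11 in KO and *Traf6* to -0.074 in HET, *Traf3* in KO came to 0.06, and no other call among the 9 changed.

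Other signs that turned belonged to small values. In KO, *Traf2* was 0.20 with library size and 0.11 with WT3 and HET3 both left out, and *Traf6* was 0.088 with library size, 0.15 without sex and 0.18 in the permutation test on 8 libraries. In HET, *Traf6* was -0.0089 with RLE, -0.0081 with DESeq2, -0.091 with library size, -0.025 with 10 reads in every library and -0.071 with WT3 and HET3 both left out, where *Traf2* was 0.15 and *Traf5* 0.26. In male against female, *Traf2* was 0.23 with library size, 0.078 with 10 reads in every library, 0.018 without genotype and 0.34 with WT3 and HET3 both left out, and *Traf3* was 0.090 with library size. Single libraries left out moved *Traf2* between -0.18 and 0.0083 and *Traf6* between -0.45 and 0.043 in KO. In HET they moved *Traf2* between -0.30 and 0.14, *Traf5* between -0.70 and 0.26, *Traf6* between -0.072 and 0.12, *Traf7* between -0.020 and 0.44 and *Birc2* between -0.18 and 0.028, and *Traf2* between -0.27 and 0.22 in male against female. Library-size scaling and the omission of both libraries were added after the data were seen. With library size as the scale the median of all genes moved from 0.13 to 0.41 in KO.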
